A study of Mus musculus with 6 samples.

Results

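Intestinal calcium absorption is governed by vitamin D, and this report follows 6 genes of that route in the duodenal villus epithelium of mice: Vdr, Rxra, Trpv6, S100g, Atp2b1 and Cyp24a1. The genes were named by function, and their rows were found by matching the Ensembl identifiers of the count table to the gene symbols. Of the 6 genes, 5 had a row among the 20409 features of the table, and all 5 of these passed the filter on low counts. Cyp24a1, which encodes the hydroxylase that inactivates vitamin D, was not analysed here.

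The double mutant mice (DM) carried Villin-CreERT2, Smad4 fl/fl and Ctnnb exon3 fl/wt. Villin-CreERT2 is a Cre recombinase that tamoxifen activates across the intestinal epithelium, where it removes Smad4 and makes 1 allele of β-catenin resistant to degradation. These mice received intraperitoneal tamoxifen at 0.05 g/kg in 4 injections, and villi were compared at 7 days after induction. Wild-type mice (WT) were littermates that received no injection, so that exposure to tamoxifen and the mutations cannot be told apart. All mice came from a background enriched for C57BL6 and were matched for age and sex, with no age stated for the individual mice. Each genotype had 3 mice, of which 2 were female and 1 was male, and mouse 1 of each genotype was the male. RNA was taken in bulk from villi shaken off the duodenum after EDTA treatment, enriched for polyadenylated transcripts and sequenced.

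In the duodenum, calcium crosses the enterocyte by a transcellular route and passes between cells by a paracellular route. The active hormone, 1,25-dihydroxyvitamin D, binds the vitamin D receptor, which pairs with a retinoid X receptor on DNA and switches on genes of the transcellular route. In that route the channel TRPV6 admits calcium at the brush border, the small protein calbindin-D9k (encoded by S100g) carries it through the cytosol, and the pump PMCA1 (encoded by Atp2b1) exports it into the blood.

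Both receptor genes were lower in the double mutant. Vdr fell by 36.0% and Rxra fell by 28.3%, each with no overlap between the genotypes. Over all tested genes the groups did not overlap for 52.4%, and for 24.2% with the double mutant lower. Enterocyte markers also fell, and relative to their sum Vdr differed by 0.10 and Rxra by 0.26 on the log2 scale. Trpv6 had the largest fold difference of the 5 genes and also the largest standard error, and 1 of its wild-type mice lay below 1 double mutant mouse. S100g, by far the most abundant of the 5 per unit of transcript length, differed by less than the spread between mice. In bulk RNA, fewer cells of a type and less RNA per cell cannot be told apart, for any of these genes.

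The sequences at the start of Trpv6, S100g and Vdr are shown because the vitamin D receptor acts on Trpv6 and S100g and because Vdr had the strongest statistical call of the 5 genes. Each window runs from 250 bases before the RefSeq start site to 50 bases after it on GRCm38.p6, and is written 5′ to 3′ on the strand of the gene, which is the minus strand for all 3. Capitals mark half-sites, the 6-base units that nuclear receptors bind, in the form AGGTCA, in the form AGTTCA, in the form GGGTCA or in the form GGTTCA, on either strand. The windows lie at chr6:41636356-41636655 for Trpv6, chrX:162964550-162964849 for S100g and chr15:97908247-97908546 for Vdr.
Trpv6: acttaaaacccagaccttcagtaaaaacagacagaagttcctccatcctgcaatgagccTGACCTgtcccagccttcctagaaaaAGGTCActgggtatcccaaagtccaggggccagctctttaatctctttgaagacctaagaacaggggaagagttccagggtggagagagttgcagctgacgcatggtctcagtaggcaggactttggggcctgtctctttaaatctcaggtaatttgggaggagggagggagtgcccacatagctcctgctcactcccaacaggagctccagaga
S100g: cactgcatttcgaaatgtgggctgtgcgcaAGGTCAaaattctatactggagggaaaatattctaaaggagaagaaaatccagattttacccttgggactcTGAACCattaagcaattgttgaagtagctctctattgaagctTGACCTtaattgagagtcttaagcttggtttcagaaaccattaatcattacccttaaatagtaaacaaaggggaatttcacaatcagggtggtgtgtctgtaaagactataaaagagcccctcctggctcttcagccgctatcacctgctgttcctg
Vdr: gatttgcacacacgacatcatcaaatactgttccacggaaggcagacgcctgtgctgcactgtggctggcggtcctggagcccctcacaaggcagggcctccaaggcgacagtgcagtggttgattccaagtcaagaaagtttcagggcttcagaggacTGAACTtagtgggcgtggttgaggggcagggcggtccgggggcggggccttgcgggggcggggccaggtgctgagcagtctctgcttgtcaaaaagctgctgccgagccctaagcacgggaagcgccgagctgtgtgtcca

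Trpv6 held 2 half-sites and S100g held 3, while Vdr held 1. In Trpv6 these began 191 and 165 bases before the start site, the first on the opposite strand and the second on the strand of the gene, and both had the form AGGTCA. In S100g they began 220, 149 and 107 bases before the start site, and the middle one had the form GGTTCA. The single half-site of Vdr had the form AGTTCA and began 91 bases before the start site. AGGTCA on either strand was present in 16.3% of all 32851 RefSeq windows of this length, and a half-site of any of the 4 forms in 43.7%.

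A vitamin D response element, taken as 2 half-sites of these forms in the same direction 3 bases apart, was found in 13 of all windows (0.0396%) and in none of the 7 windows of the 5 genes. Of the 2 windows of Rxra, 1 held 3 half-sites, and neither window of Atp2b1 held one. A motif bound by TCF factors, the DNA-binding partners of β-catenin, in the form CTTTGAA, in the form CTTTGAT, in the form CTTTGTA or in the form CTTTGTT on either strand, was present in 16.9% of all windows. It began 121 bases before the Trpv6 start site, as CTTTGAA on the strand of the gene, and 44 bases before the S100g start site, as CTTTGTT on the opposite strand. The motif of the intestinal factor CDX2, searched as CAATAAA or CCATAAA on either strand, was present in 7.20% of all windows and in none of the 7. These are matches of letters within 300 bases only, and binding was not measured.

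Library depth was similar across mice, from 19678507 to 26337318 counts. A level of 3 counts corresponded to between 0.114 and 0.153 counts per 1000000 counts (CPM), so each of the 5 genes was far above the limit of detection. Levels are given below as CPM after scaling each library by the TMM method. TMM corrects for differences in RNA composition on the assumption that most genes do not differ, which was not tested. Without that scaling the median difference of all tested genes moved by 0.19 on the log2 scale towards the double mutant. Smad4, the deleted gene, was at 120, 180 and 145 CPM in the wild-type mice and at 26.1, 36.8 and 32.1 in the double mutants, a log2 fold change of -2.22 (SE 0.19, adjusted p = 0.000145 by the quasi-likelihood test of edgeR with Benjamini-Hochberg adjustment). Ctnnb1, whose exon 3 loss changes the protein and which is counted over the whole gene, differed by -0.15 (adjusted p = 0.359), and by 0.046 when scaled by library size alone.

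Summed RNA levels of cell type markers differed between mice; cell numbers were not measured. The summed level of 19 enterocyte markers was 86672, 79758 and 74334 CPM in the wild-type mice and 45588, 49187 and 48478 in the double mutants, with 15 of the 19 lower in the double mutant and 1 higher. The summed level of 9 stem cell markers was 53.8 to 169 CPM in the wild type and 384 to 499 in the double mutant, with 5 of the 9 higher. Wild-type mouse 1 stood apart from its group. Its goblet cell markers summed to 122 CPM, against 11490 and 10839 in the other wild-type mice and 4397 to 4857 in the double mutants. Its Paneth cell markers summed to 7.83 CPM, against 935 and 1550 in the other wild-type mice and 147 to 233 in the double mutants. Its lymphocyte markers were at 86.0 CPM, against 172 and 157 in the other wild-type mice and 73.1 to 114 in the double mutants. Mesenchymal markers summed to between 1.46 and 6.76 CPM in every mouse, with 3 of the 7 at no more than 3 counts throughout. Tuft cell markers summed to 99.3 to 136.5 CPM in the wild type and 12.8 to 14.2 in the double mutant, with 6 of 6 tested lower, and enteroendocrine markers to 225 to 314 against 100.3 to 112 CPM, with 5 of 8 lower and 1 higher. Markers of the proximal intestine, 5 genes, summed to 680, 1119 and 1163 CPM in the wild-type mice and 1414 to 1909 in the double mutants, with 1 higher and 0 lower, and wild-type mouse 1 was again the lowest.

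To examine whether the genes of calcium absorption changed with the mutations, the 3 double mutant mice were compared with the 3 wild-type mice across all 13346 genes that passed the filter. At an adjusted p under 0.05, 36.8% of these genes were called, 17.0% lower and 19.7% higher in the double mutant. Of the 5 genes, 2 were called lower (Vdr and Rxra) and 0 higher. Without wild-type mouse 1, 37.4% of genes were called, 17.1% lower and 20.2% higher, and 4 of the 5 genes were lower (Vdr, Rxra, Trpv6 and Atp2b1). Over all 6 mice the groups did not overlap for 52.4% of tested genes, and for 24.2% with the double mutant lower; this was so for Vdr and Rxra among the 5. DESeq2 called 32.9% of genes (16.1% lower, 16.8% higher) and 3 of the 5 lower (Vdr, Rxra and Trpv6). With a log2 fold change of at least 2 in size required as well, 5.30% of genes and 0 of the 5 were called.

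**Figure D1:**
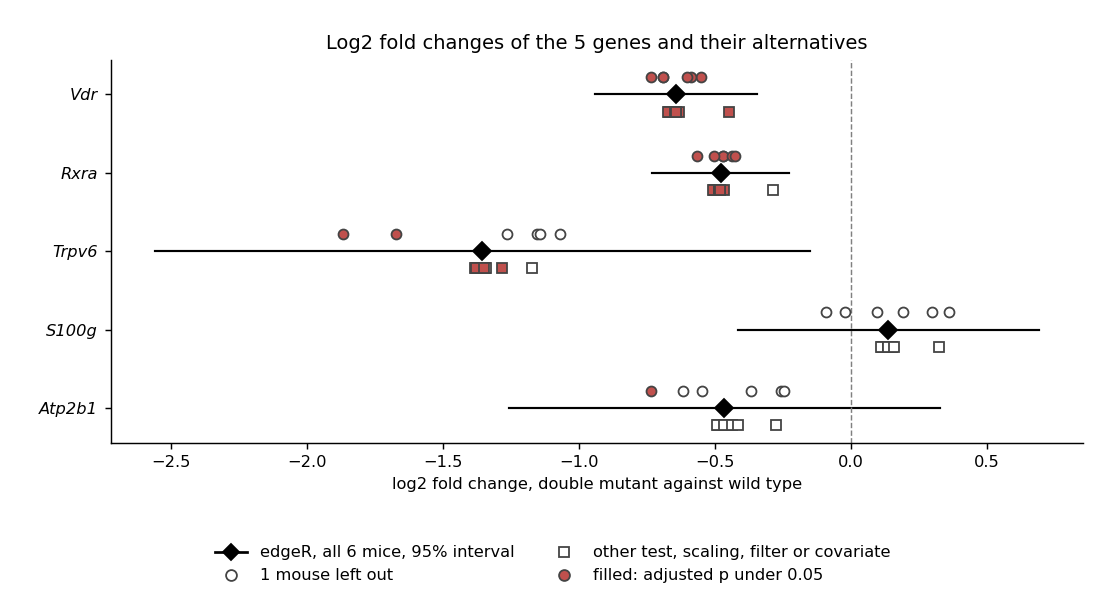
Log2 fold change of double mutant against wild type on the x axis for each of the 5 genes, with bars giving the 95% interval of the edgeR fit over all 6 mice circles giving fits with 1 mouse left out and squares giving other tests, scalings, filters or covariates, filled where the adjusted p was under 0.05. The intervals of Vdr (-0.94 to -0.35), Rxra (-0.73 to -0.23) and Trpv6 (-2.56 to -0.15) lie below 0, and those of Atp2b1 and S100g span 0.

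Vdr (ENSMUSG00000022479, protein coding, minus strand of chromosome 15, 97684856 to 97741061 on mm9) encodes the receptor itself. It was at 636.7, 529.5 and 532.7 CPM in wild-type mice 1 to 3, and at 410.0, 333.0 and 344.0 CPM in double mutant mice 1 to 3. The genotypes did not overlap, and mouse 1 of each genotype was the highest of its group. The means were 566 ± 61.0 CPM (SD, n = 3) and 362 ± 41.7 CPM (SD, n = 3). The log2 fold change was -0.64 (SE 0.13), with an adjusted p of 0.00589 by edgeR. Leaving out each mouse in turn gave log2 fold changes between -0.73 and -0.55, and Vdr passed the test each time.

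Rxra (ENSMUSG00000015846, protein coding, plus strand of chromosome 2, 27531960 to 27618477 on mm9) encodes the retinoid X receptor that serves as the DNA-binding partner of the vitamin D receptor. The wild-type mice were close together at 216.5, 216.8 and 208.7 CPM, and the double mutants were at 146.4, 142.0 and 172.0 CPM. The groups did not overlap, and the wild-type spread was the smallest of the 5 genes relative to its mean, at 214 ± 4.58 CPM (SD, n = 3) against 154 ± 16.2 in the double mutant (SD, n = 3). The log2 fold change was -0.48 (SE 0.11, adjusted p = 0.0102 by edgeR), and it was -0.29 (adjusted p = 0.0683) when libraries were scaled by size alone. The log2 ratio of Vdr to Rxra was 1.40 ± 0.14 in the wild type and 1.24 ± 0.24 in the double mutant (SD, n = 3 each). These ratios overlapped between the genotypes, with a difference of -0.16 (two-sided exact permutation p = 0.4).

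Trpv6 (ENSMUSG00000029868, protein coding, minus strand of chromosome 6, 41570620 to 41586404 on mm9) encodes the calcium channel of the brush border. It was at 25.99, 69.4 and 57.5 CPM in wild-type mice 1 to 3 and at 14.1, 13.7 and 31.9 CPM in double mutant mice 1 to 3, from 295 to 1275 counts per mouse. Wild-type mouse 1 lay below double mutant mouse 3, while the other 2 wild-type mice lay above every double mutant. The means were 51.0 ± 22.4 and 19.9 ± 10.4 CPM (SD, n = 3 each), and the log2 fold change was -1.36 (SE 0.49, 95% interval -2.56 to -0.15). This did not pass after adjustment (adjusted p = 0.0780 by edgeR, unadjusted p = 0.0330). It passed without wild-type mouse 1 (-1.67, adjusted p = 0.0256), without double mutant mouse 3 (-1.87, adjusted p = 0.0231), with sex as a covariate (-1.28, adjusted p = 0.0252) and with DESeq2 (-1.38, adjusted p = 0.0474). Trpv6 stayed uncalled in 4 of 6 fits with a mouse left out (adjusted p up to 0.227) and in 5 of 8 other settings (up to 0.197).

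S100g (ENSMUSG00000040808, protein coding, minus strand of the X chromosome, 159399924 to 159402531 on mm9) encodes calbindin-D9k. It was at 700.7, 858.5 and 1177 CPM in the wild-type mice and at 940.3, 767.6 and 1302 CPM in the double mutants. The groups overlapped, with wild-type mouse 1 below every double mutant and double mutant mouse 3 above every wild-type mouse, and mouse 3 was the highest of each genotype. The means were 912 ± 243 and 1003 ± 273 CPM (SD, n = 3 each). The log2 fold change was 0.14 (SE 0.24, 95% interval -0.41 to 0.69, adjusted p = 0.687 by edgeR), an interval that spans differences in both directions. The sign turned without wild-type mouse 1 (-0.021) and without double mutant mouse 3 (-0.091).

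Atp2b1 (ENSMUSG00000019943, protein coding, plus strand of chromosome 10, 98377786 to 98488777 on mm9) encodes the basolateral calcium pump PMCA1. It was at 337.0, 727.5 and 650.2 CPM in the wild-type mice and at 501.6, 277.6 and 462.7 CPM in the double mutants. Wild-type mouse 1 was again the lowest of its group and lay below 2 of the double mutants. The means were 572 ± 207 and 414 ± 120 CPM (SD, n = 3 each), with a log2 fold change of -0.47 (SE 0.33, 95% interval -1.26 to 0.33, adjusted p = 0.316 by edgeR). Without wild-type mouse 1 the log2 fold change was -0.73 (adjusted p = 0.0378), and Atp2b1 then passed the test.

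**Figure D2:**
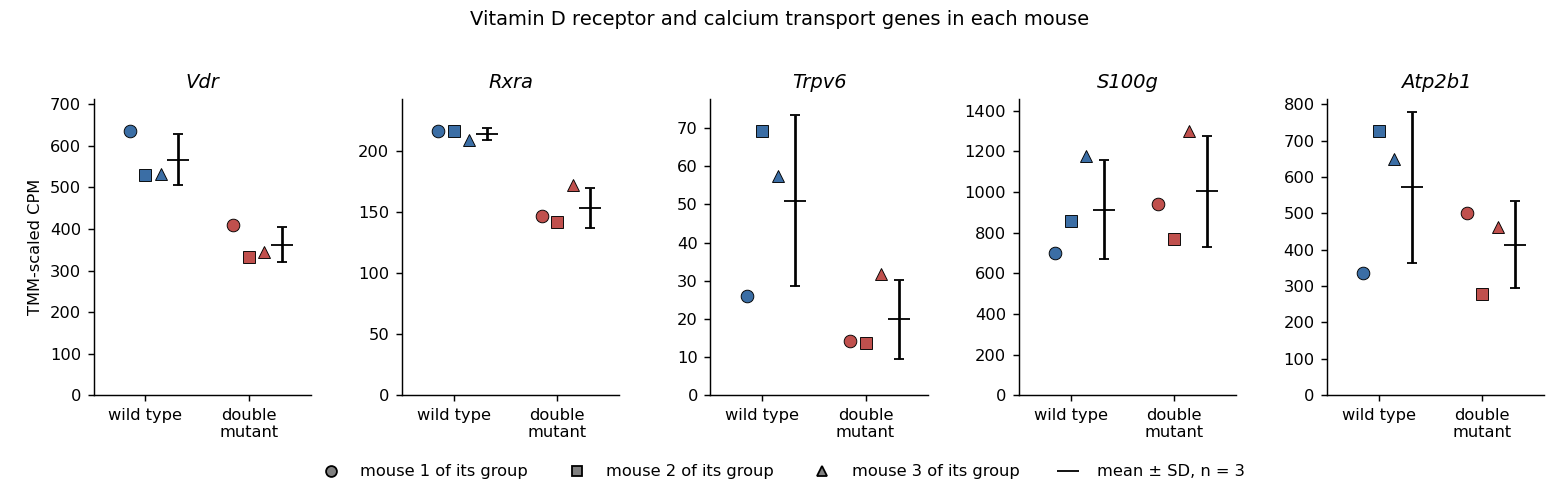
CPM on the y axis of each of the 5 genes in each mouse, by genotype on the x axis, with 1 point per mouse, lines for the mean and bars for the SD (n = 3), each panel on its own linear scale from 0. Vdr and Rxra separate the genotypes, while for Trpv6 and Atp2b1 wild-type mouse 1 (25.99 and 337.0 CPM) falls among the double mutants.

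Divided by exon length, the 5 genes kept the same order in both genotypes. On this scale of CPM per kilobase, S100g was at 1900 ± 505.5 in the wild type and 2090 ± 568 in the double mutant (SD, n = 3 each), the 26th and the 20th highest of 20032 genes with a known length. Vdr followed at 100.2 in the wild type and 64.1 in the double mutant, and Atp2b1 at 79.99 and 57.9. Vdr and Atp2b1 did not differ beyond their spread in either genotype, with SDs of 10.8 and 28.9 in the wild type and of 7.37 and 16.8 in the double mutant. Rxra was at 39.2 and 28.1, and Trpv6 was the lowest at 17.3 and 6.77, its rank moving from 3140 to 5627.

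Ratios within each mouse compare the steps of the transcellular route without any scaling between libraries. The log2 ratio of Trpv6 to S100g, the channel against the carrier, was -4.75, -3.63 and -4.36 in wild-type mice 1 to 3 and -6.06, -5.81 and -5.35 in double mutant mice 1 to 3. Every double mutant ratio lay below every wild-type ratio, including that of wild-type mouse 1, and the means differed by -1.49. The log2 ratio of Trpv6 to Atp2b1, the channel against the pump, was -3.53 ± 0.16 in the wild type and -4.45 ± 0.65 in the double mutant (SD, n = 3 each), again without overlap. The 2-sided exact permutation p was 0.1 for each of these ratios, the smallest that 3 against 3 mice allow, and 0.2 after adjustment over the 4 ratios compared. The log2 ratio of S100g to Atp2b1 was 0.72 ± 0.43 and 1.29 ± 0.33 (SD, n = 3 each) and overlapped between the genotypes (difference 0.57, exact permutation p = 0.2). Leaving out each mouse in turn moved the difference for Trpv6 to S100g between -1.75 and -1.19 and that for Trpv6 to Atp2b1 between -1.22 and -0.57.

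Because the enterocyte markers also fell, each gene was set against their sum in the same mouse. On that scale Vdr differed by 0.10 on the log2 scale (exact permutation p = 0.7) and its groups overlapped. Rxra was higher relative to the markers in every double mutant than in every wild-type mouse, by 0.26 (exact permutation p = 0.1). S100g differed by 0.88 (exact permutation p = 0.2), Atp2b1 by 0.31 (exact permutation p = 0.5) and Trpv6 by -0.61 (exact permutation p = 0.3), all with overlap. After adjustment over the 5 genes these p-values ranged from 0.5 to 0.7. Without double mutant mouse 1 the difference for Vdr was -0.023, and without wild-type mouse 1 that for Atp2b1 was -0.089. The overlap for Trpv6 came from wild-type mouse 1 alone, and without it the difference was -1.09 (exact permutation p = 0.2). The part of enterocyte content in the lower Vdr and Rxra levels was not tested beyond these ratios.

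**Figure D3:**
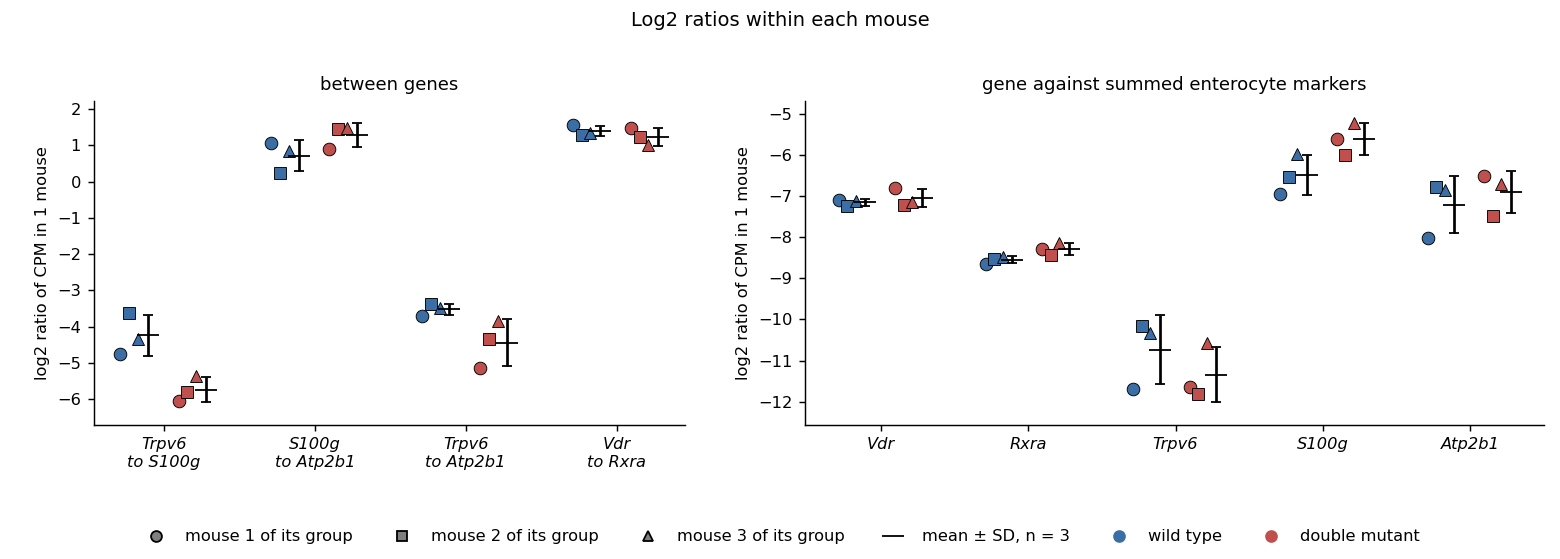
Log2 ratios within each mouse, on the y axis, of 4 pairs of genes and of each of the 5 genes to the summed enterocyte markers, with 1 point per mouse, the genotypes in different colours, and lines and bars for the mean and SD (n = 3). The ratio of Trpv6 to S100g separates the genotypes (mean -4.25 against -5.74), and the ratio of Vdr to the enterocyte markers does not (-7.15 against -7.05).

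Other genes of the pathway were examined as lists chosen by function, 86 genes in all, of which 79 had a row and 68 passed the filter. Of these 68 genes, 21 were lower and 9 were higher, beside 17.0% lower and 19.7% higher over all tested genes. Their median log2 fold change was -0.27, beside a median of 0.02 over all tested genes. Without wild-type mouse 1 these counts were 18 lower and 11 higher, beside 17.1% and 20.2% of all genes. The counts in each direction depended on the scaling, and with libraries scaled by size alone 13 of the 68 were lower and 14 higher. The shares of all genes moved the same way, to 10.7% lower and 28.0% higher (38.6% called). The counts of the single lists below stand beside the same shares of all genes.

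Among genes of vitamin D supply, which take up and hydroxylate the vitamin, 1 of 4 tested was lower and 0 were higher. This gene was Cubn, which encodes cubilin, a receptor that takes up vitamin D bound to its carrier protein. It was at 123, 102 and 36.5 CPM in the wild type and 16.1, 6.68 and 26.6 in the double mutant (log2 fold change -2.41, adjusted p = 0.0447 by edgeR). The groups did not overlap, but with 1 mouse removed Cubn still passed the test only without wild-type mouse 3 (adjusted p = 0.0214) and without double mutant mouse 3 (adjusted p = 0.0488); the adjusted p was 0.0906 to 0.129 in the other 4 fits. Cubn also lost its call without the low-count filter and with sex as a covariate. With libraries scaled by size alone, and without wild-type mouse 1, the list had 0 lower and 1 higher. The higher gene was Dhcr7, named after its values were seen, which encodes the enzyme that uses up the precursor of vitamin D made in skin; over all 6 mice its log2 fold change was 0.30 (adjusted p = 0.176 by edgeR). Lrp2, another uptake receptor gene of this list, had at most 1 count in any mouse and did not pass the filter on low counts. Uptake of vitamin D by these cells was not measured. Cyp27b1, which encodes the enzyme that makes the active hormone, was not analysed here.

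Among the partners and coregulators of the receptor, 2 of 11 tested were lower and 1 was higher. Without double mutant mouse 1 the count of lower genes was 5, and with libraries scaled by size alone it was 0. Ncor1, a corepressor of nuclear receptors, was lower by a log2 fold change of -0.76 (adjusted p = 0.0185 by edgeR). The coactivator Ncoa3 was lower by -0.39 (adjusted p = 0.0301), and Smarca4, the ATPase of the SWI/SNF remodelling complex, was higher by 0.35 (adjusted p = 0.0218). These 3 calls were weak, since each was lost without double mutant mouse 2 and without double mutant mouse 3, where the adjusted p lay between 0.0536 and 0.0994. Rxrb, a second partner that can replace Rxra, was at 35.0, 35.4 and 37.3 CPM in the wild type and 26.1, 32.5 and 31.6 in the double mutant. Its groups did not overlap, and its log2 fold change of -0.26 did not pass the test (adjusted p = 0.138). Rxrg was not analysed here.

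Other genes known to respond to vitamin D moved in both directions, with 2 of 8 tested higher and 2 lower. Cldn2, a claudin that forms paracellular pores for cations including calcium, was at 7.87, 28.6 and 36.9 CPM in the wild type and 414, 351 and 392 CPM in the double mutant. This log2 fold change of 3.98 (SE 0.59, adjusted p = 0.00497 by edgeR) passed whichever mouse was left out, between 3.56 and 4.41. Cldn12, another claudin tied to calcium permeability, was at 27.7, 29.2 and 30.5 CPM against 42.1, 39.4 and 37.1 CPM, a log2 fold change of 0.44 (adjusted p = 0.0153). The cell-cycle inhibitor Cdkn1a was at 385, 310 and 309 CPM in the wild type and 85.0, 104 and 76.2 in the double mutant (-1.92, adjusted p = 0.000114). Slc34a2, the sodium-phosphate cotransporter of the intestinal brush border, was at 52.8, 72.5 and 99.2 CPM against 14.1, 17.7 and 14.5 CPM (-2.28, adjusted p = 0.000333). The genotypes did not overlap for any of these 4 genes. The count of lower genes was 4 with DESeq2, and 3 with limma-voom, without wild-type mouse 3 and without double mutant mouse 3.

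Cyp3a11, a cytochrome P450 of the same list, was picked out after its values were seen because of their range. It was at 2605, 706 and 706 CPM in the wild type and at 10.4, 3.39 and 103 CPM in the double mutant. The groups did not overlap, and the log2 fold change was -5.10 (SE 1.69), which did not pass the test (adjusted p = 0.0798 by edgeR). Without wild-type mouse 1 it was -4.18 (adjusted p = 0.168). Cyp3a11 belongs to a family of similar genes, and how reads shared between them were counted is not given in the sources used here. The gene passed without double mutant mouse 3 (-7.60, adjusted p = 0.0201) and with DESeq2 (-5.12, adjusted p = 0.00112). It stayed uncalled in 6 of 8 other settings, and the log2 fold changes of these 8 ranged from -6.40 to -4.89.

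Among other genes of calcium transfer, 2 of 12 tested were higher (Cldn2 and Cldn12 again) and 2 were lower. Cldn15, the other main cation pore claudin of the small intestine, was at 932, 940 and 1013 CPM in the wild type and 502, 547 and 538 CPM in the double mutant (log2 fold change -0.86, adjusted p = 0.000645 by edgeR). The claudins of this list thus differed in direction, with Cldn15 lower and Cldn2 and Cldn12 higher, and all 3 kept those directions when scaled by library size alone. Atp2b2, a second calcium pump gene, fell by 3.18 on the log2 scale (adjusted p = 0.0056) from low levels, 0.65 to 1.77 CPM in the wild type and 0.05 to 0.19 in the double mutant. Its double mutant counts were 4, 3 and 1, around the limit of 3 counts, so the size of this fall is imprecise.

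The close relatives of the 5 genes were scarce or did not pass the test. Atp2b4, a further pump gene, lay between 0.19 and 2.12 CPM over the 6 mice (log2 fold change -0.26, adjusted p = 0.828 by edgeR), and its sign turned without wild-type mouse 2 (0.64). Trpv5, the renal counterpart of Trpv6, had at most 5 counts in any mouse and did not pass the filter on low counts. Calb1, which encodes the renal carrier calbindin-D28k, had 2 counts in double mutant mouse 3 and 0 in the others, and did not pass it either. Slc30a10, a manganese transporter that vitamin D induces in the intestine, was at 204, 335 and 325 CPM in the wild type and 287, 232 and 302 in the double mutant. Its log2 fold change was -0.07 (adjusted p = 0.799), and 0.12 when scaled by library size alone.

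Genes that load, hold and release stored calcium were lower in 9 of 17 tested and higher in 2, beside 17.0% lower and 19.7% higher over all tested genes. With libraries scaled by size alone, 6 were lower and 3 higher. Itpr1 and Itpr2 encode channels that release calcium from the endoplasmic reticulum, and their log2 fold changes were -1.75 (adjusted p = 0.00369 by edgeR) and -1.16 (adjusted p = 0.00102). Itpr1 was at 41.8 CPM in wild-type mouse 1 against 22.7 and 20.6 in the other wild-type mice, and without mouse 1 its log2 fold change was -1.36 (adjusted p = 0.000894). Atp2a3, which encodes the pump that refills that store, was at 88.2, 166 and 161 CPM in the wild type and 57.0, 53.5 and 52.0 in the double mutant (-1.35, adjusted p = 0.00281). Orai2, a channel subunit for store-operated entry, was higher by 1.29 (adjusted p = 0.0457), a call that was lost on leaving out any mouse other than wild-type mice 1 and 3. Between 6 and 9 genes of the list were lower when each mouse was left out in turn, the 6 without wild-type mouse 3, and 0 to 2 were higher.

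Among phosphate transporters, whose absorption vitamin D also promotes, Slc34a2 was lower and Slc20a2, a widely expressed phosphate carrier, was higher (0.46, adjusted p = 0.016 by edgeR), out of 4 tested. DESeq2 called 3 lower and 1 higher of this list, and 2 were lower without the low-count filter and without wild-type mouse 3. Slc20a2 lost its call without wild-type mouse 2 (adjusted p = 0.0526) or 3 (adjusted p = 0.0581). Of 15 other nuclear receptors listed as partners of retinoid X receptors, 5 were lower and 3 higher, and with libraries scaled by size alone 3 were lower and 5 higher. Ppard, a fatty acid receptor, differed by -0.69 (adjusted p = 0.00142) and Nr4a2, an orphan receptor, by -1.45 (adjusted p = 0.0102). Ppara, the fatty acid receptor that governs fat oxidation, was higher by 1.05 (adjusted p = 0.00714), and the retinoic acid receptor gene Rarg by 1.71 (adjusted p = 0.00381) from under 1 CPM in each wild-type mouse. The 5 lower calls became 3 without wild-type mouse 1, without wild-type mouse 3, and without double mutant mouse 2 or 3.

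**Figure D4:**
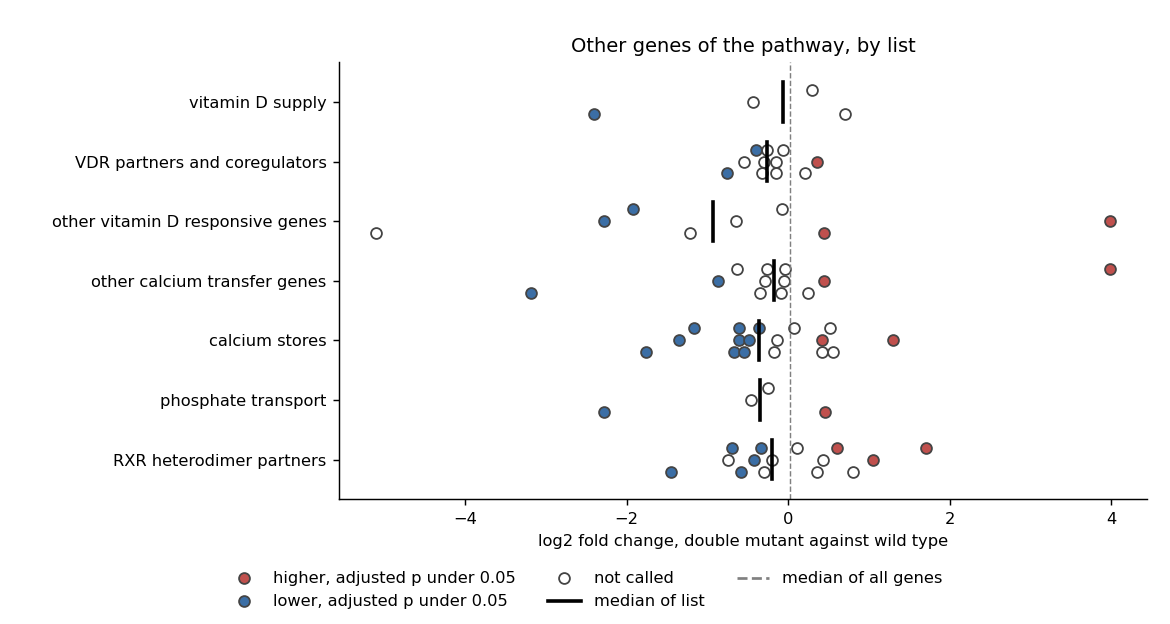
Log2 fold change of double mutant against wild type on the x axis for every tested gene of the 7 pathway lists, 1 row per list, with points coloured by whether the gene was higher, lower or not called by edgeR, a vertical bar for the median of each list and a dashed line for the median of all genes. The calcium stores row has 9 lower and 2 higher of 17, and Cldn2 at 3.98 is the highest point.

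The genes whose values over the 6 mice were closest to each of the 5 genes were found by the root mean square difference of log2 CPM after centring, among 10753 genes. For Vdr these were Fam114a1, Fam160b1 and Galm, at 0.0434 to 0.0511, against a median of 0.433 over all genes compared. For Rxra they were Rps6kc1, Tmem184b and Depdc7, at 0.0333 to 0.0393, against a median of 0.372. Trpv6 had no gene as close, and its nearest were the transcript 9630028B13Rik at 0.202 and the T cell receptor subunit genes Cd3e at 0.254 and Cd3g at 0.296, against a median of 0.938.

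The nearest to Atp2b1 included the lymphocyte genes Sash3 at 0.103 and Zap70 at 0.140, with an unnamed numbered transcript at 0.119 between them. Cd3e was at 4.37, 12.95 and 9.30 CPM in the wild type and 3.38, 3.39 and 5.36 in the double mutant. Wild-type mouse 1 was the lowest of its group, as it was for Trpv6 and Atp2b1. Because Cd3e was picked for its likeness to Trpv6 in these same mice, that shared low value follows from the choice. Of the 7 lymphocyte markers, 2 were called lower and 0 higher. The duodenal factor Pdx1 was looked at after its values were seen. It was at 39.99, 73.0 and 77.1 CPM in the wild type and 45.4, 43.9 and 48.3 in the double mutant, with wild-type mouse 1 the lowest there too. Pdx1 was 1 of 5 proximal markers, whose sum was higher in the double mutant (1414 to 1909 CPM) than in the wild type (680 to 1163 CPM). The 3 distal markers summed to 89.5, 59.95 and 76.5 CPM in wild-type mice 1 to 3 and 27.1 to 54.2 CPM in the double mutants. The part of lymphocyte content or of the region sampled in the Trpv6 and Atp2b1 values was not tested. For S100g the nearest were Fam83d at 0.0800, Gm2382 at 0.142 and Chaf1a at 0.143, against a median of 0.439, none of which passed the test. These measures compare 6 mice only and are given as descriptions.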

How the data were processed

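Bulk RNA-seq was made from duodenal villus epithelium of 3 wild-type and 3 double mutant mice. The authors aligned the reads to mm9 with HISAT2 (2.0.5) and deposited raw read counts per gene from featureCounts (1.5.0-p3); whether strand was used is not given in the sources used here. Gene symbols and mm9 positions came from the GENCODE annotation of that build, matched for 20032 of 20073 Ensembl identifiers, and promoter windows from RefSeq (GRCm38.p6). The other 336 features are numbered transcripts. Counts were tested with edgeR (4.0.16, R 4.3.3): filterByExpr, TMM, robust quasi-likelihood fit, Benjamini-Hochberg adjustment over 13346 genes, calls at an adjusted p under 0.05. The fits were tried on simulated counts with a single dispersion and few changed genes, balanced in direction. Those counts do not test the scaling or the influence of wild-type mouse 1 in these data. Standard errors are the log2 fold change over the square root of F. Ratios within a mouse were compared by two-sided exact permutation tests.

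Alternatives were DESeq2 (1.42.0), limma-voom (3.58.1), other scalings and filters, a replicate block, sex as a covariate, fold thresholds, and leaving out each mouse. Named besides the 6 genes were the targeted genes, their relatives, up to 4 called genes per list with the largest fold change, and the 3 nearest patterns per gene with a mean log2 CPM of at least 1 (prior count 2). Of the list genes, 7 were matched by RefSeq synonym. The 6 genes and all lists were chosen with earlier results of these data known. Libraries differed well beyond sampling noise, with chi-square per degree of freedom of 24.4 to 108. Each library is labelled as a separate mouse sample. The limit of 3 counts covers counting error only.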

Additional observations from a re-analysis of the deposited data

How the results depend on the processing

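Vdr kept its direction and passed under every scaling, filter, tool and left-out mouse tried, except for a log2 fold threshold of 1 or 2. The number of genes called among the 5 was 1 when libraries were scaled by size alone, 0 at a fold threshold of 1 and 0 at 2, and 2 to 4 when each mouse was left out, 4 being without wild-type mouse 1. Over all genes 4905 were called, against 708 and 2286 at log2 fold thresholds of 2 and 1, and 3442 to 5144 with a mouse left out. Scaling by library size alone called 3732 genes higher and 1425 lower, against 2632 and 2273 (it applies no correction for RNA composition), and with it Rxra was at -0.29 (adjusted p = 0.0683).

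Trpv6 passed with DESeq2 (-1.38), with the replicate block (-1.35, adjusted p = 0.0308) and with sex as a covariate (-1.28, adjusted p = 0.0252), and ranged from -1.87 to -1.07 with a mouse left out. The adjusted p of Trpv6 was at most 0.197 under the other settings and 0.227 with a mouse left out. The replicate block called 3834 of all genes and 3 of the 5. Cldn12 (adjusted p = 0.0551), Cubn, Ncoa3, Smarca4 and Slc20a2 lost their calls with it. The same-numbered mice share a number and a sex, with no litter, batch or day stated, and their deviations from the group means correlated at 0.0224, -0.109 and 0.0123. S100g ranged from -0.091 to 0.36 and turned sign without wild-type mouse 1 (-0.021) and without double mutant mouse 3 (-0.091). Atp2b1 ranged from -0.73 to -0.25 with a mouse left out. The cause of these changes was not tested.

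Relative to enterocyte markers, Vdr ranged from -0.023 to 0.18 and Atp2b1 from -0.089 to 0.60 with a mouse left out. Signs also turned for uncalled genes: Ctnnb1 (0.046) and Slc30a10 (0.12) when scaled by library size alone, Slc30a10 with a mouse left out (-0.27 to 0.047), Atp2b4 without wild-type mouse 2 (0.64) or double mutant mouse 2 (0.21, range -1.40 to 0.64), Fam83d without double mutant mouse 3 (-0.11, range -0.11 to 0.29), and Chaf1a without wild-type mouse 1 (-0.0548) or double mutant mouse 3 (-0.059, range -0.059 to 0.27). With 3 mice a group, exact permutation tests cannot go below 0.1, so the ratios cannot pass a threshold of 0.05. Trpv5 and Calb1, at 5 counts or fewer per mouse, did not pass the filter on low counts.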
